A study of Mus musculus with 42 samples.

Results

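The 10 genes described here, H19, Dlk1, Meg3, Rian, Peg3, Mest, Plagl1, Grb10, Zim1 and Ndn, are imprinted genes with reported roles in growth, and were taken by their symbols from the 24466 genes listed in 8 RNA-seq count files. All 10 were listed, and all 10 were among the 14836 genes with enough counts to be tested. iPax7 cells are myogenic precursors of mouse embryonic stem cell origin, from 1 line, in which doxycycline (Dox) induces a Pax7 transgene. Pax7 is the transcription factor that marks muscle stem cells. The +Dox group (3 libraries) was cultured with 0.75 ug/ml Dox, and the -Dox group (2 libraries) carried the same transgene and had been without Dox for 3 days. The third group (3 libraries) was satellite cells, the muscle stem cells themselves, sorted from mouse muscle by a Pax7-ZsGreen reporter and without induction. Open chromatin was assayed by ATAC-seq in iPax7 cells and satellite cells, and Pax7 and 4 histone marks by ChIP-seq in iPax7 cells, while C2C12 cells, a mouse myoblast line, had ATAC-seq and ChIP-seq of the histone marks. The ATAC-seq and histone peak lists were made from merged replicates, and Pax7 sites from peaks called in each replicate.

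An imprinted gene is expressed mainly from either the maternal or the paternal copy. A nearby control region carries DNA methylation on the copy from only a single parent. Imprinted genes lie in clusters that share such a region and often pair a growth-promoting gene expressed from the paternal copy with a growth-restraining gene or a long non-coding RNA expressed from the maternal copy. Several of them are high in fetal tissues and fall after birth, and H19, Dlk1 and the Meg3 cluster are well known in developing and regenerating muscle. The counts used here do not separate the parental copies.

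The 10 genes fall into a few genomic groups. Dlk1 (12:110691033-110701546, plus strand), Meg3 (12:110779211-110809936, plus strand) and Rian (12:110842155-110899919, plus strand) lie in 1 cluster, with 77.7 kb between Dlk1 and Meg3 and 32.2 kb between Meg3 and Rian (mm9, the build of the files). H19 (7:149761434-149764048, minus strand) lies 72.6 kb from Igf2. Zim1 (7:6628154-6649161, minus strand) lies 7.4 kb from Peg3 (7:6656603-6683132, minus strand), on the same chromosome as Ndn (7:69493163-69494814, plus strand). Mest (6:30673547-30698457, plus strand), Plagl1 (10:12810497-12851500, plus strand) and Grb10 (11:11830511-11938686, minus strand) lie alone among the 10.

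The promoters of the 4 genes with the highest -Dox to +Dox ratios are shown. These genes rose together from +Dox to -Dox but differed from each other in satellite cells. Each sequence is the 250 bases before the first base of the gene in the annotation, read 5′ to 3′ on the gene's strand from the mm9 genome, with every CG, the dinucleotide that carries imprint methylation, in capitals.
H19, chr7:149764049-149764298, minus strand: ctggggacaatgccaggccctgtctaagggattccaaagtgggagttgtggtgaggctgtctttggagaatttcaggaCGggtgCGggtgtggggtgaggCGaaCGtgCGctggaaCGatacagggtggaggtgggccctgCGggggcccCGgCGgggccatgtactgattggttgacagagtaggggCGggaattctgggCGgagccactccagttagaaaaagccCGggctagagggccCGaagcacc
Dlk1, chr12:110690783-110691032, plus strand: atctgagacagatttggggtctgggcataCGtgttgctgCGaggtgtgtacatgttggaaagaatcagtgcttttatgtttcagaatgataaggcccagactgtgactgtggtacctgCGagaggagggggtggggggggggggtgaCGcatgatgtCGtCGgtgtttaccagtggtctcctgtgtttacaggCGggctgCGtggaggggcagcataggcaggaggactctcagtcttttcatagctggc
Meg3, chr12:110778961-110779210, plus strand: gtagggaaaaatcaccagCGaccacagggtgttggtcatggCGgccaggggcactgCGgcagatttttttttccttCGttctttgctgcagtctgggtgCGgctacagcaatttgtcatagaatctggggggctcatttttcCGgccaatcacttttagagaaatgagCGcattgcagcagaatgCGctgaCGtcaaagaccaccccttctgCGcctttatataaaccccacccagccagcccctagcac
Rian, chr12:110841905-110842154, plus strand: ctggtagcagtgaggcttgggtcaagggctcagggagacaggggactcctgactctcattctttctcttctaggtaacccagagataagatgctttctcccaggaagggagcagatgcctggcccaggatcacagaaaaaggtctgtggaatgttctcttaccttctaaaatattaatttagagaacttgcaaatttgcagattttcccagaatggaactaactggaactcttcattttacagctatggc

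The H19 promoter window held 13 CG, the Meg3 window 10 and the Dlk1 window 8, beside a median of 9 over the same 250 bases of 20478 genes. No CG was found in the Rian window. The E-box CAGCTG, a word bound by myogenic factors and identical on both strands, was in 12% of all promoter windows and in none of these 4. The homeodomain word TAATTA, also identical on both strands, was in 4.55% of all promoter windows and in none of the 4. At such shares, absence from 4 windows, chosen by the change of their genes in these data, says little.

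Pax7 sites were the peaks that the authors kept from the +Dox ChIP-seq, 2455 in all. A site lay in the gene or within 5 kb of it for 4 of the 10 genes, Peg3, Mest, Plagl1 and Grb10, beside 6% of the 20478 genes with 1 annotated gene of that symbol. The 10 genes were longer than most, with a median span of 25.7 kb against 15.8 kb. The windows below come from the sites that overlapped a start of Peg3 and of Mest. They show 200 bases outside any annotated exon, on the plus strand, with every CG in capitals.
Peg3, chr7:6683133-6683332, plus strand: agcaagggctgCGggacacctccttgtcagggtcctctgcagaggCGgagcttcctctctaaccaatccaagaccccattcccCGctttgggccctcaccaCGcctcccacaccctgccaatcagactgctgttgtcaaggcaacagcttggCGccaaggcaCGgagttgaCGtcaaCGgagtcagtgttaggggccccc
Mest, chr6:30688336-30688535, plus strand: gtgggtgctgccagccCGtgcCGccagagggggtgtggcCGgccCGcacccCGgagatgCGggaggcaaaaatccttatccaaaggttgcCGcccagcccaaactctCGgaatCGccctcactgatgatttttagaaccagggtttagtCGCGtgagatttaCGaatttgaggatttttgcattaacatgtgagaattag

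These sites were rich in CG. Both were picked for overlapping a start, while the paper places most Pax7 sites far from one. Their ranks thus set starts against mostly distal sites. The other sites at the 10 genes had 0.566 to 1.36 CG per 100 bases, more than 15.2% to 54.8% of all sites. The site at Peg3 (7:6682700-6683730) held 47 CG, or 4.56 per 100 bases, more than 90.2% of all Pax7 sites. The site at Mest (6:30687357-30689165) held 97 CG, or 5.36 per 100 bases, more than 92.1% of all sites, against a median of 1.27 over the 2455 sites. Neither of them held TAATTA. Of the other sites at the 10 genes, 4 held it, and 2 of these, which lay away from the starts, are shown with that word in capitals.
Downstream of Mest, chr6:30700229-30700428, plus strand: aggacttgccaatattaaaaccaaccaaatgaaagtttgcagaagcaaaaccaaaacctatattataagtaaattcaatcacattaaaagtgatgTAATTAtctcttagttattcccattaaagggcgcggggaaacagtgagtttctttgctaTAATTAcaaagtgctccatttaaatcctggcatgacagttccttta
Downstream of Rian, chr12:110916084-110916283, plus strand: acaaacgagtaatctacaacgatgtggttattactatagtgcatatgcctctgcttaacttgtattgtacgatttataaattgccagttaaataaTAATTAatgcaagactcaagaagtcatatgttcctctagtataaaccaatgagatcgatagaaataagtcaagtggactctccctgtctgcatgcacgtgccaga

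Another site with TAATTA lay within Plagl1 (10:12825943-12826765). These 4 are of 9 sites at Peg3, Mest, Plagl1, Grb10 and Rian, beside 20.5% of all sites. The word was counted over whole sites. The 9 were 668 to 3019 bases wide against a median of 664 over all sites, and a wider site has more room for it. The Rian site was added as the nearest and lies beyond the 5 kb used for the others, so the 2 shares are not like for like. The site downstream of Rian was the closest to the whole chromosome 12 cluster, at 31.6 kb from a Rian start, 129.0 kb from a Meg3 start and 218.0 kb from a Dlk1 start. H19 was the farthest of the 10 from any Pax7 site, at 291.0 kb, and Ndn lay 114.0 kb away. The median distance from a start to the nearest site was 30.0 kb over the 10 genes and 383.0 kb over 20463 genes. The closest annotated start of each gene was used, and the 10 genes have a median of 7 starts against 2 over all genes, which can shorten their distances. Dlk1, Meg3 and Rian also share the same nearest site.

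Sequencing depth on genes was 39010958 to 54674619 counts per library. Pax7 fitted the Dox labels, with 11610 to 14130 normalized counts in +Dox, 221 and 270 in -Dox, and 3926 to 8504 in satellite cells. Normalized counts are counts scaled to a common library size by TMM factors. The third +Dox library stood apart from the other +Dox libraries, with correlations over genes of 0.938 and 0.941 to them against 0.966 between those. Satellite cell libraries correlated at 0.880 to 0.895 with each other. The 8 satellite cell markers summed to 744500 to 1187000 normalized counts in satellite cells, 186300 to 263200 in +Dox and 48870 to 53580 in -Dox. Each marker had a count in some library of every group, but Calcr and Chodl had means of only 0.854 and 7.61 in +Dox against 12334 and 80954 in satellite cells. From +Dox to -Dox the means of Pax7, Myf5, Vcam1, Sdc4 and Cd34 fell, while those of Calcr, Chodl and Itga7 rose, Itga7 from 370 to 3649. The 9 myocyte and myofiber markers summed to 1772000 to 1792000 normalized counts in -Dox, 9679 to 13430 in +Dox and 9347 to 15820 in satellite cells. All 5 endothelial markers had counts in the satellite cell libraries (summed 13680 to 19990), as had all 7 fibroblast markers (48860 to 125200), all 4 pericyte markers (10920 to 21720) and all 6 blood markers (2378 to 9883). The same lists reached at most 166.6, 12510, 217.7 and 471.7 in the iPax7 libraries, where Cdh5, Ptprc, Itgam, Cd3e and Kcnj8 were at 0. The part of these other cells and of differentiation in the results below was not tested. In such bulk libraries, fewer cells of a type and less RNA per cell cannot be told apart.

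After 3 days without Dox, the non-coding RNAs H19, Meg3 and Rian and the transmembrane ligand gene Dlk1 rose between 21.7-fold and 66.1-fold, while Mest and Plagl1 fell. Of the 10 genes, 4 were higher and 2 lower in -Dox at an adjusted p under 0.05, and the other 4, Peg3, Grb10, Zim1 and Ndn, did not pass the test. This is 6 of 10 beside 7.7% of all genes tested, of which 4.66% were higher and 3.04% lower in -Dox. The 10 genes were chosen with earlier results of these data known, so this share is a description only. Dlk1, Meg3 and Rian also lie in the same cluster and are not separate cases. The libraries of the 2 groups did not overlap for 8 of the 10 genes, beside 45.3% of all genes. Throughout, the test was edgeR's quasi-likelihood F test, adjusted over all genes tested by the method of Benjamini and Hochberg. Without the second -Dox library, 3 of the 10 genes passed.

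**Figure D1:**
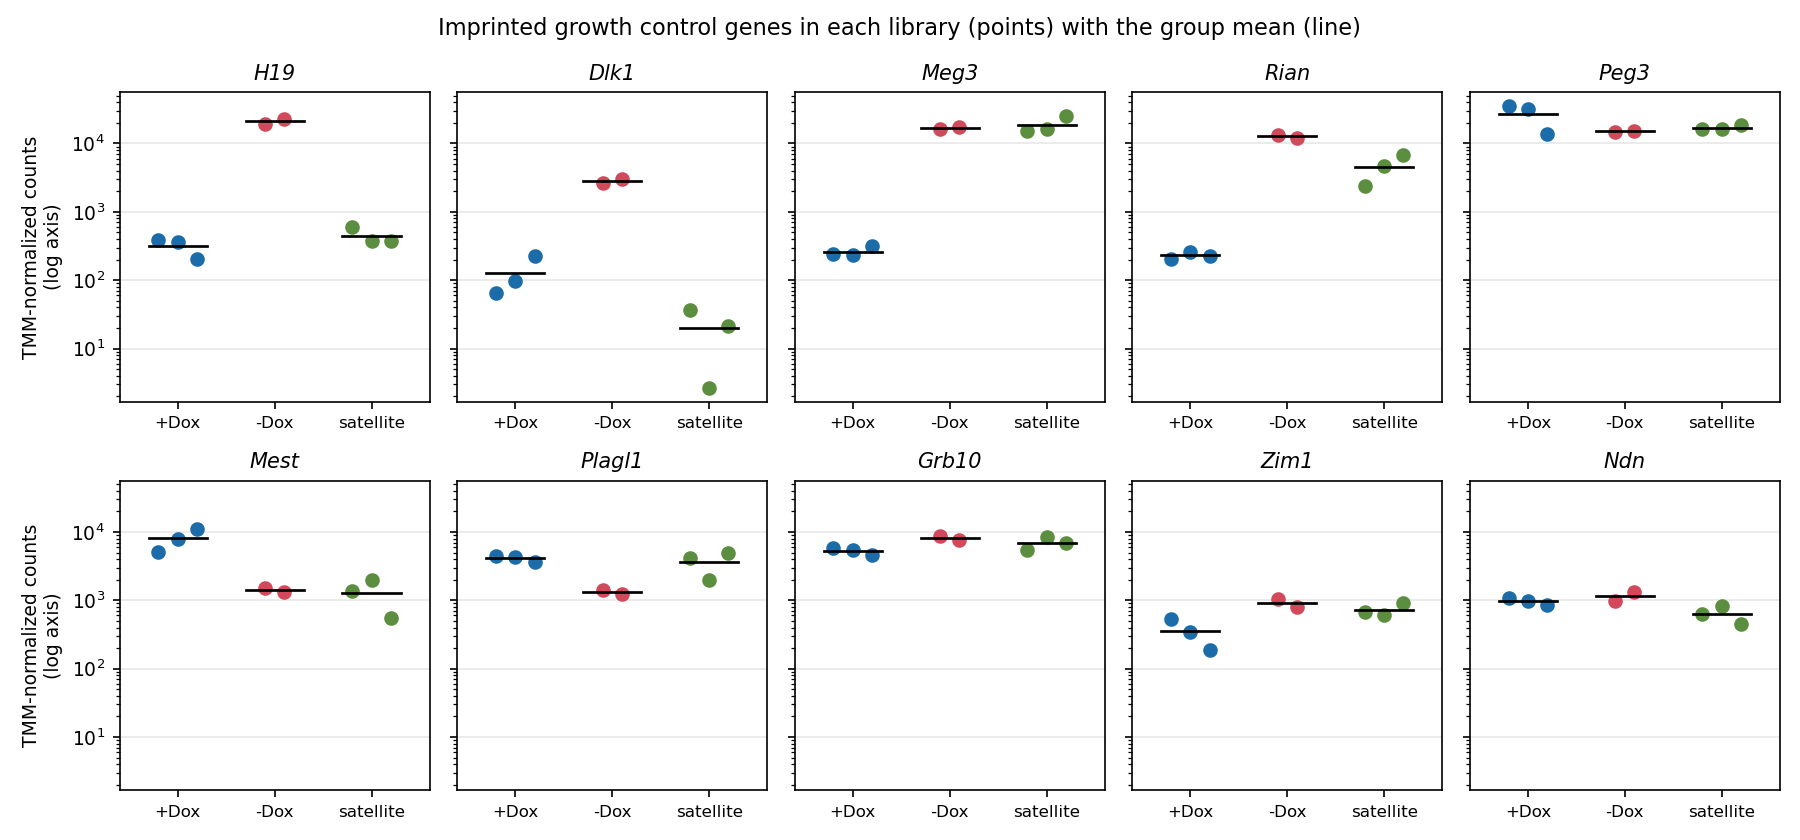
Normalized counts (log axis) of each of the 10 imprinted genes in every library, with 1 point per library and a line at the mean of the +Dox, -Dox and satellite cell groups. H19, Dlk1, Meg3 and Rian stood well above all +Dox libraries in both -Dox libraries, while Meg3 in satellite cells was at the level of -Dox and Dlk1 in satellite cells lay below its level in every iPax7 library.

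H19 is a maternally expressed long non-coding RNA, abundant in fetal muscle, that lies beside the growth factor gene Igf2. It had 385, 363 and 207 normalized counts in the 3 +Dox libraries and 19050 and 23093 in the 2 -Dox libraries. In satellite cells it had 595, 377 and 371. Both -Dox libraries stood far above all others, and the +Dox and satellite cell libraries overlapped. Against a +Dox mean of 318 (SD 97.3, n = 3), the -Dox mean of 21072 (SD 2859, n = 2) was higher by 6.05 ± 0.39 on the log2 scale (SE, edgeR adjusted p = 4.2e-05). Per kb of exon, H19 was the highest of the 10 genes in -Dox, at 8883 normalized counts per kb, and the sixth in +Dox, at 134.

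Its neighbour Igf2, a paternally expressed fetal growth factor and not one of the 10, had 7615, 6976 and 4534 normalized counts in +Dox and 89897 and 102790 in -Dox (log2 fold change 3.92 ± 0.40, edgeR adjusted p = 0.000412). The balance of the 2 genes was read within each library. Within each library, which needs no scaling, there were 5.06, 5.20 and 4.56 reads of H19 per 100 reads of Igf2 in +Dox. The -Dox libraries had 21.2 and 22.5, and the satellite cell libraries 11.0, 16.5 and 12.1. The 3 groups did not overlap in this ratio. With 3 libraries against 2, a two-sided exact permutation test cannot go below p = 0.2, and with 3 against 3 it cannot go below 0.1. The ratio was at those limits in each of its 3 comparisons (exact permutation p adjusted over 15 ratio comparisons, 0.231).

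Meg3 is a maternally expressed long non-coding RNA and Rian is the next transcript of the same cluster, host of many small nucleolar RNAs and microRNAs. Meg3 had 240, 230 and 312 normalized counts in +Dox and 16497 and 17241 in -Dox. In satellite cells it had 15267, 16192 and 24880. The satellite cell and -Dox libraries overlapped, and both lay far above all +Dox libraries. The +Dox mean was 261 (SD 45.2, n = 3) and the -Dox mean 16869 (SD 526, n = 2), a rise of 6.02 ± 0.33 on the log2 scale (SE, edgeR adjusted p = 1.4e-05).

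Rian had 205, 258 and 227 normalized counts in +Dox and 13428 and 12218 in -Dox. Satellite cells had 2417, 4603 and 6692. The 3 groups did not overlap, with -Dox highest and +Dox lowest. Against +Dox, -Dox was higher by 5.80 ± 0.43 on the log2 scale (SE, edgeR adjusted p = 6.7e-05). The annotation places small RNA genes inside Meg3, Rian and H19, and Gm17639 on the opposite strand of Meg3, so that reads there may have been set aside or assigned to either gene.

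Dlk1 is the paternally expressed gene at the other end of this cluster and encodes a transmembrane protein of the Notch ligand family. It had 65.3, 97.0 and 224 normalized counts in +Dox and 2597 and 2992 in -Dox. In satellite cells it had 36.9, 2.68 and 21.1, from 28, 2 and 16 reads. The 3 groups did not overlap, and within +Dox the third library was the highest. The difference between -Dox and +Dox was 4.44 ± 0.82 on the log2 scale (SE, edgeR adjusted p = 0.0102). It did not pass without the second -Dox library (log2 fold change 4.34, edgeR adjusted p = 0.0582) and passed in the other 12 of 13 alternatives.

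The proportion of Meg3 to Rian overlapped between the 2 iPax7 groups and was higher in every satellite cell library. There were 117, 88.8 and 138 reads of Meg3 per 100 of Rian in +Dox and 123 and 141 in -Dox, which overlapped. Satellite cells had 632, 352 and 372, above all iPax7 libraries. For Dlk1 and Meg3 no groups overlapped in the proportion. The +Dox libraries had 27.3, 42.3 and 71.7 reads of Dlk1 per 100 of Meg3, the -Dox libraries had 15.7 and 17.4, and satellite cells had 0.241, 0.0166 and 0.0848. Exact permutation p-values for these ratios were 0.4 for Meg3 per Rian between -Dox and +Dox and otherwise the smallest the design allows, with an adjusted p of 0.231.

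**Figure D2:**
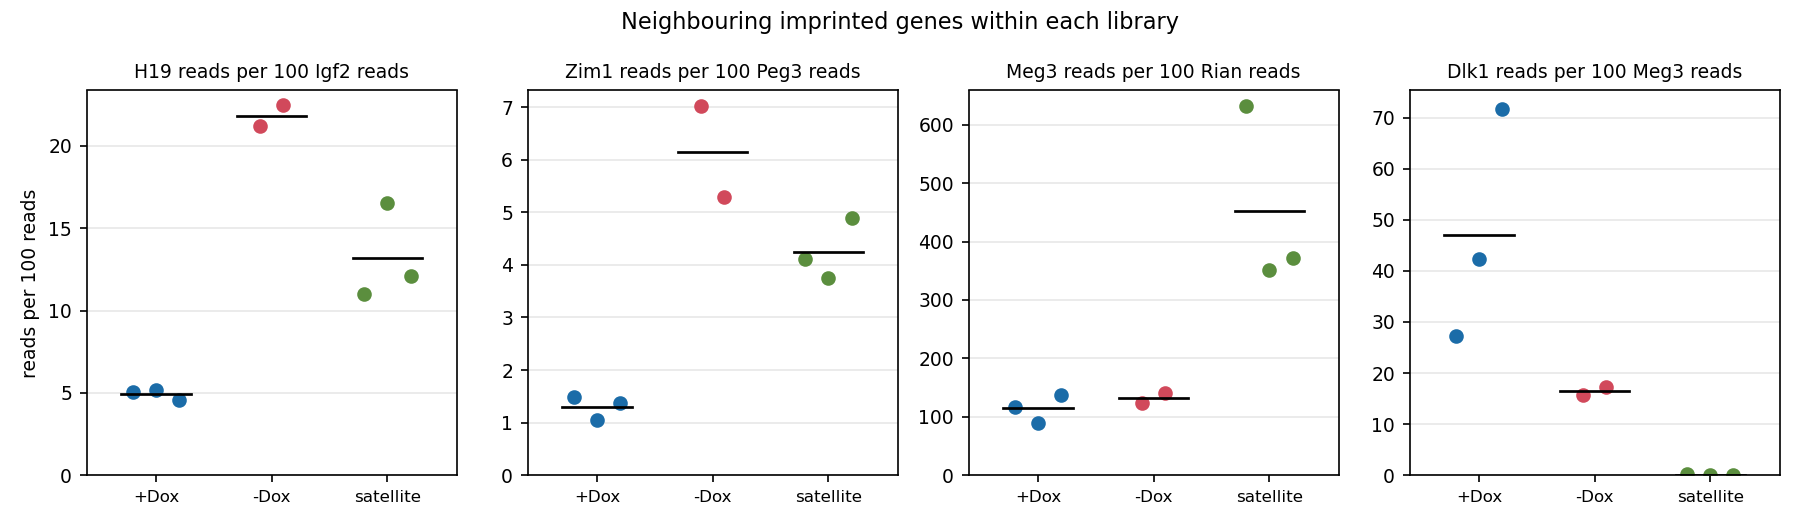
Reads of 1 gene per 100 reads of its neighbour in each library (points), with the group mean (line), for the +Dox, -Dox and satellite cell groups on a linear axis. H19 per Igf2 ran from 4.56 to 5.20 in +Dox and was 21.2 and 22.5 in -Dox, while Meg3 per Rian overlapped between +Dox and -Dox and was 352 or more in all satellite cell libraries.

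Other transcripts of the chromosome 12 cluster were read from a wider list of imprinted genes. Mirg, a microRNA host transcript downstream of Rian, had 20.3, 53.3 and 63.7 normalized counts in +Dox, 340 and 439 in -Dox and 361, 645 and 849 in satellite cells (-Dox against +Dox, log2 fold change 3.09 ± 0.65, edgeR adjusted p = 0.0197). Rtl1, a paternally expressed retrotransposon-derived gene, had 0, 5.92 and 5.46 in +Dox, 231 and 147 in -Dox and 217, 153 and 496 in satellite cells (edgeR adjusted p = 0.0243 for -Dox against +Dox). Both -Dox libraries and all satellite cell libraries were above all +Dox libraries for both genes. Rtl1 lies between Meg3 and Rian but on the opposite strand (12:110827404-110838540, minus strand). The strand setting of the counting is not given, so reads counted for Rtl1 may come from transcripts of the other strand. Its values therefore do not show a rise of the paternally expressed gene with certainty. Dio3, at the far end of the cluster, had no count in any iPax7 library.

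Mest is a paternally expressed gene of the mesoderm that encodes a putative hydrolase. It had 5155, 7867 and 11171 normalized counts in +Dox, 1498 and 1338 in -Dox, and 1359, 1962 and 553 in satellite cells. All +Dox libraries were above all others, and -Dox lay within the satellite cell range. The fall from +Dox to -Dox was 2.51 ± 0.55 on the log2 scale (log2 fold change -2.51, SE, edgeR adjusted p = 0.0239). It passed in 9 of 13 alternatives and was lost without the second or the third +Dox library or either -Dox library (edgeR adjusted p between 0.0588 and 0.184, log2 fold change -2.20 to -2.59). Reads where Mest overlaps Copg2 on the opposite strand cannot be assigned with certainty, since the strand setting of the counting is not given in the sources used here.

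Plagl1 is a paternally expressed zinc finger transcription factor known to restrain growth and to act on other imprinted genes. It had 4401, 4279 and 3598 normalized counts in +Dox, 1392 and 1223 in -Dox and 4110, 1952 and 4906 in satellite cells. Both -Dox libraries were below all others, and +Dox lay within the satellite cell range. The fall from +Dox to -Dox was 1.65 ± 0.40 on the log2 scale (log2 fold change -1.65, SE, edgeR adjusted p = 0.0375). It was lost when any 1 of the 5 iPax7 libraries was left out (edgeR adjusted p between 0.0535 and 0.255, log2 fold change -1.54 to -1.74).

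Peg3, a paternally expressed zinc finger gene known as a marker of stem and progenitor cells, was among the highest of the 10 genes per kb of exon in all groups, at 2036 normalized counts per kb in +Dox, 1136 in -Dox and 1285 in satellite cells. The +Dox libraries had 35215, 32386 and 13736 normalized counts and the -Dox libraries had 14938 and 15302. The third +Dox library lay below both -Dox libraries and the other +Dox libraries lay over 2-fold above them. The log2 fold change between -Dox and +Dox was -0.84 ± 0.37 (SE, edgeR adjusted p = 0.230). Without the third +Dox library it was -1.16 (edgeR adjusted p = 0.0154).

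Zim1, a maternally expressed zinc finger gene beside Peg3, had 526, 339 and 188 normalized counts in +Dox and 1049 and 809 in -Dox. The groups did not overlap, and the log2 fold change was 1.40 ± 0.49 (SE, edgeR adjusted p = 0.123). DESeq2 gave 1.45 with an adjusted p of 0.0444. Within the libraries, there were 1.49, 1.05 and 1.37 reads of Zim1 per 100 of Peg3 in +Dox, 7.02 and 5.28 in -Dox, and 4.11, 3.75 and 4.90 in satellite cells. The 3 groups did not overlap in this ratio, each comparison being at the smallest exact permutation p the design allows.

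Grb10, an adaptor protein that restrains insulin and growth factor receptors, had 5896, 5458 and 4646 normalized counts in +Dox and 8699 and 7651 in -Dox. The groups did not overlap, but the log2 fold change of 0.62 ± 0.26 did not pass (SE, edgeR adjusted p = 0.213). Ndn, a paternally expressed gene of the MAGE family that is known to restrain the cell cycle and to act in myoblast differentiation, had 1067, 986 and 840 in +Dox and 961 and 1335 in -Dox. These overlapped, with a log2 fold change of 0.25 ± 0.38 (SE, edgeR adjusted p = 0.805). The interval of 2 SE on each side ran from -0.52 to 1.02.

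**Figure D3:**
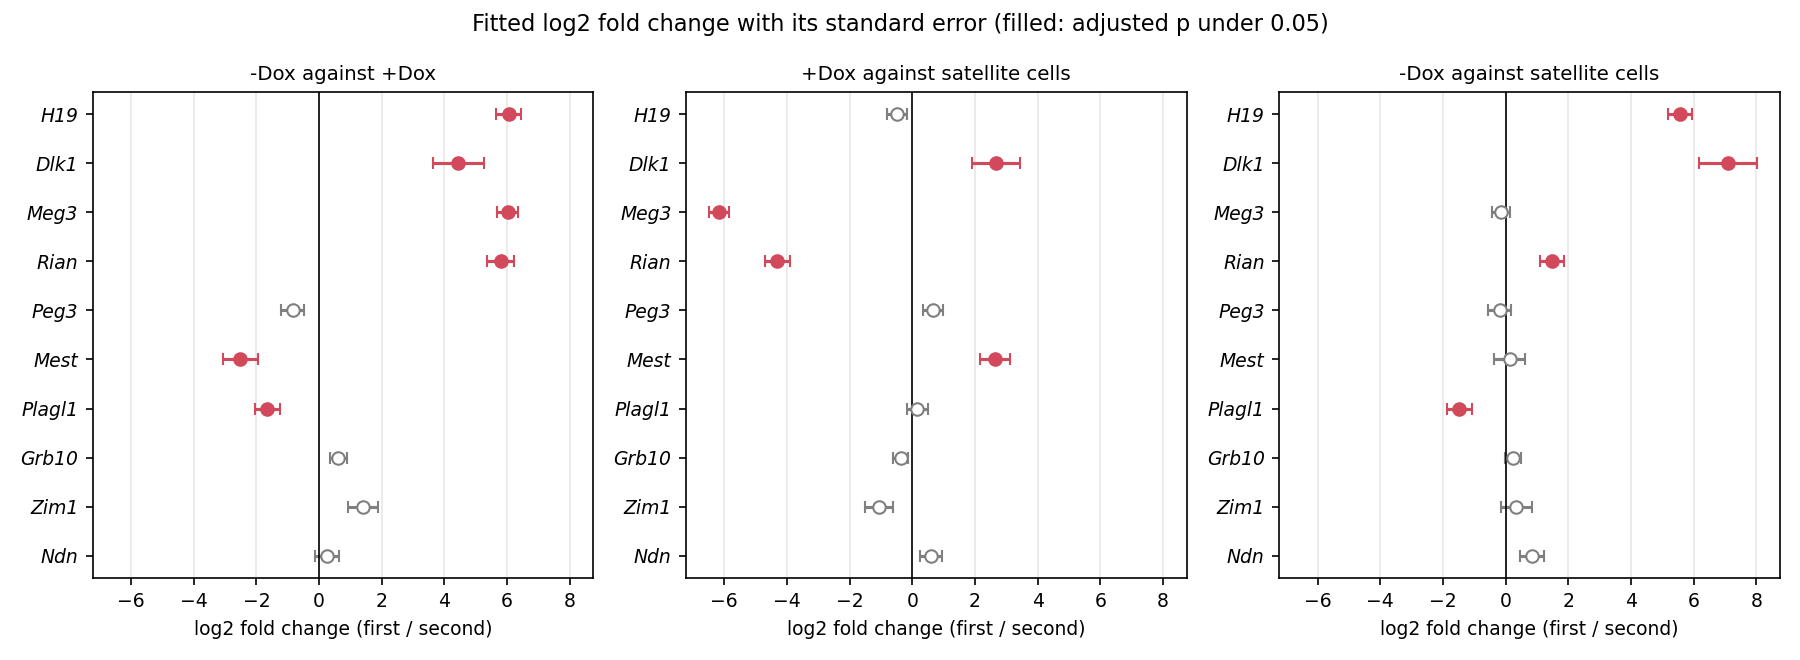
Fitted log2 fold change of each of the 10 genes in the 3 comparisons (x axis, log2 scale, first group over second), with bars of 1 standard error and filled points where the edgeR adjusted p was under 0.05. H19 was apart from 0 in both comparisons with -Dox and not between +Dox and satellite cells, and Meg3 in both comparisons with +Dox and not between -Dox and satellite cells. The 3 comparisons share libraries.

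Against satellite cells, +Dox cells had less Meg3 and Rian and more Mest and Dlk1. Of the 10 genes, 2 were higher and 2 lower in +Dox, or 4 of 10 beside 44.9% of all genes tested (19.8% higher, 25.1% lower), a share near the background. The libraries did not overlap for 6 of the 10, beside 56.5% of all genes. From the values above, Meg3 was lower in +Dox by 6.17 ± 0.32 on the log2 scale (log2 fold change -6.17, SE, edgeR adjusted p = 4.6e-06) and Rian by 4.31 ± 0.40 (log2 fold change -4.31, SE, edgeR adjusted p = 5.5e-05). Mest was higher by 2.64 ± 0.47 (SE, edgeR adjusted p = 0.00181) and passed in all 13 alternatives. Dlk1 was higher by 2.66 ± 0.76 (SE, edgeR adjusted p = 0.0188). The Dlk1 call was lost without the third +Dox library (edgeR adjusted p = 0.0643), without the third satellite cell library (edgeR adjusted p = 0.0515) and with only the 2 groups in the fit (edgeR adjusted p = 0.0805). The 2 Dlk1 reads in the second satellite cell library have an exact 95% Poisson interval of 0.242 to 7.22, which covers counting error only.

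The other 6 genes did not pass between +Dox and satellite cells. H19 differed by -0.49 ± 0.31 on the log2 scale (SE, edgeR adjusted p = 0.228), Grb10 by -0.37 ± 0.24 (SE, edgeR adjusted p = 0.226), Plagl1 by 0.16 ± 0.34 (SE, edgeR adjusted p = 0.725) and Ndn by 0.61 ± 0.35 (SE, edgeR adjusted p = 0.180). Peg3 had 16468, 16475 and 18389 normalized counts in satellite cells and differed by 0.66 ± 0.33 (SE, edgeR adjusted p = 0.125). Without the third +Dox library Peg3 was 0.98 higher on the log2 scale in +Dox (edgeR adjusted p = 0.00448). Zim1 had 677, 618 and 901 in satellite cells, above all +Dox libraries, and differed by -1.06 ± 0.45 (SE, edgeR adjusted p = 0.0796). It passed by DESeq2 (log2 fold change -1.13, adjusted p = 0.0380) and without the first +Dox library (log2 fold change -1.43, edgeR adjusted p = 0.0496).

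Against satellite cells, -Dox cells had more H19, Dlk1 and Rian and less Plagl1. This is 3 higher and 1 lower of the 10, beside 39% of all genes tested (18.1% higher, 20.9% lower), and 6 of the 10 did not overlap beside 64.3% of all genes. H19 was higher by 5.56 ± 0.39 on the log2 scale (SE, edgeR adjusted p = 2.8e-05) and Dlk1 by 7.10 ± 0.92 (SE, edgeR adjusted p = 0.000428). Rian was higher by 1.49 ± 0.38 (SE, edgeR adjusted p = 0.0127) and Plagl1 lower by 1.48 ± 0.40 (log2 fold change -1.48, SE, edgeR adjusted p = 0.0160). Without the first -Dox library, 2 of the 10 genes passed, since Rian (edgeR adjusted p = 0.0784) and Plagl1 (edgeR adjusted p = 0.0854) no longer did. Plagl1 was also lost without the second -Dox library (edgeR adjusted p = 0.126).

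The remaining 6 genes did not pass between -Dox and satellite cells. Meg3 differed by -0.15 ± 0.29 on the log2 scale (SE, edgeR adjusted p = 0.699), with an interval of 2 SE from -0.73 to 0.42, so that a difference of more than this was not seen although +Dox lay 64.7-fold below -Dox. Its direction turned without the third satellite cell library. Mest differed by 0.13 ± 0.50 (SE, edgeR adjusted p = 0.853), and its direction also turned without that library. Peg3 (-0.18 ± 0.37), Grb10 (0.24 ± 0.27) and Zim1 (0.34 ± 0.49) had edgeR adjusted p between 0.495 and 0.728. Grb10 had 5508, 8329 and 6907 normalized counts in satellite cells. Ndn had 627, 818 and 455 there, below both -Dox libraries, and differed by 0.86 ± 0.38 (SE, edgeR adjusted p = 0.0997).

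The order of the groups thus differed among the 10 genes. -Dox was the highest group for H19, Dlk1, Rian, Grb10, Zim1 and Ndn, +Dox for Peg3, Mest and Plagl1, and satellite cells for Meg3. The top 2 groups in this order overlapped for Meg3, Peg3, Plagl1, Grb10, Zim1 and Ndn. Per kb of exon, the highest of the 10 were Mest (2048) and Peg3 (2036) in +Dox, H19 (8883) and Rian (1564) in -Dox, and Peg3 (1285) and Meg3 (1038) in satellite cells. Meg3 was the lowest of the 10 in +Dox, at 14.4 normalized counts per kb, Plagl1 in -Dox, at 179, and Dlk1 in satellite cells, at 3.57. These levels divide by all annotated exons of a gene, 18.09 kb for Meg3, so the ranks depend on that length. By normalized counts alone, Dlk1 (mean 129) and Rian (230) were below Meg3 (261) in +Dox.

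The genes most alike in pattern were sought among 11357 tested genes with a mean of at least 100 normalized counts, by Pearson's r of log2 CPM across the 8 libraries. The 8 libraries fall into 3 groups, so r mainly reflects the group levels. For H19 they were Sh3glb1 (r = 0.995), Tmem8c (0.995), which encodes the myoblast fusion protein myomaker, and Syt4 (0.993). For Meg3 they were Cldn1 (0.998), Adamts20 (0.997) and Mfap4 (0.996). For Dlk1 they were Aamdc (0.996), Ift43 (0.991) and Rbm24 (0.989), an RNA-binding protein of muscle differentiation. For Peg3 they were Baz1b (0.973), Ccdc88a (0.971) and Zbtb38 (0.959).

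Of a wider list of 75 other imprinted genes, 70 were listed and 58 tested. Between -Dox and +Dox, 8 were higher and 3 lower in -Dox, 11 of 58 beside 7.7% of all genes. The median log2 fold change of the 58 was 0.00 beside -0.0049 over all genes, while the 10 genes above had a median of 1.01. Both lists were chosen with earlier results of these data known, so these shares and medians are descriptions only. The 8 that rose were Igf2, Rtl1, Mirg, Zdbf2, Dcn, Dhcr7, Ddc and Cobl, and the 3 that fell were Peg10, Peg12 and Phactr2, of which Dhcr7, Ddc, Cobl, Peg12 and Phactr2 were named after their values were seen. Zdbf2, a paternally expressed gene linked to postnatal growth, rose from a mean of 321 normalized counts (SD 29.8, n = 3) in +Dox to 8020 (SD 42.0, n = 2) in -Dox (log2 fold change 4.64 ± 0.41, edgeR adjusted p = 0.000198). Peg10, a retrotransposon-derived gene of the placenta, fell by 1.44 ± 0.31 on the log2 scale (log2 fold change -1.44, edgeR adjusted p = 0.0238). Dcn, a matrix proteoglycan gene, rose from 50.2 ± 41.8 to 892 ± 8.93, but had 19634 ± 4766 in satellite cells, where fibroblast markers were also high. The count of 11 rested on single libraries, since it was between 4 and 7 when any 1 of the 5 iPax7 libraries was left out, with the lowest value without the second -Dox library.

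Several well-known imprinted genes did not pass between -Dox and +Dox. Cdkn1c, a cell cycle inhibitor, had a log2 fold change of -0.33 ± 0.35 (edgeR adjusted p = 0.678), Igf2r, the receptor that clears Igf2, 0.47 ± 0.38 (edgeR adjusted p = 0.560) and Gnas, a G protein subunit, 0.61 ± 0.24 (edgeR adjusted p = 0.175). Sgce (-0.19 ± 0.24), Impact (0.64 ± 0.30), Usp29 (1.09 ± 0.71) and Nnat (-1.56 ± 1.10) had edgeR adjusted p between 0.253 and 0.737. Ascl2, Magel2 and Dio3 had too few counts to be tested, and Snrpn and Snurf were listed at 0 in every library. These 2 genes share a transcript, and reads in overlapping genes were set aside as ambiguous (1.51% to 2.32% per library), so a 0 here does not show that they were silent. The part of the counting in these zeros was not tested. Between satellite cells and each iPax7 group, 32 of the 58 passed, 15 higher and 17 lower in +Dox, and 16 higher and 16 lower in -Dox, beside 44.9% and 39% of all genes. The count in -Dox was 21 without the first -Dox library.

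Among 10 regulators of imprints, the maintenance DNA methyltransferase Dnmt1 and its partner Uhrf1 were lower in -Dox than in +Dox. Dnmt1 fell from 5574 ± 2901 (SD, n = 3) to 1151 ± 81.8 (SD, n = 2) normalized counts (edgeR adjusted p = 0.0208) and Uhrf1 from 10349 ± 2228 to 964 ± 218 (edgeR adjusted p = 0.00745). The other 8, Dnmt3a, Dnmt3b, Zfp57, Trim28, Ctcf, Tet1, Tet2 and Tet3, did not pass. In all, 2 of 10 passed, beside 7.7% of all genes tested. Satellite cells also lay below +Dox, with 853 ± 105 for Dnmt1 and 359 ± 239 for Uhrf1 (edgeR adjusted p = 0.000875 and 0.000143). Between +Dox and satellite cells 5 of the 10 passed, 3 higher and 2 lower in +Dox, beside 44.9% of all genes. Zfp57, the zinc finger protein that protects imprints in the embryo, had 20566 ± 4235 in +Dox and 22305 ± 868 in -Dox, but 1422 ± 438 in satellite cells (log2 fold change of +Dox over satellite cells 3.85 ± 0.31, edgeR adjusted p = 2.7e-05). Tet2, which oxidizes methylated cytosine, had 1357 ± 307 in +Dox against 21128 ± 7880 in satellite cells (log2 fold change -3.96 ± 0.36, edgeR adjusted p = 5.1e-05).

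Peaks were then counted within 1 kb of any annotated start site of each gene. The 10 genes have a median of 7 annotated starts against 2 over all genes, so they have more windows in which a peak can fall. Peaks of ATAC-seq and of the histone mark H3K4me3 were at most of them in both iPax7 states, as they were at most of all genes. ATAC-seq peaks were at 8 of the 10 genes in +Dox (65.6% of all genes) and after 12 h (63.6%), 24 h (66.8%) and 3 days (68.2%) without Dox, each time at all but H19 and Rian. In satellite cells 9 of 10 had one (60.7% of all genes), H19 included, and in myotubes made from iPax7 cells all 10 had one (64%). H3K4me3, the mark of active starts, was at 9 of the 10 genes in both states (62.7% of all genes in +Dox, 68.7% in -Dox), H19 being the exception. H3K4me1, a mark of enhancers and of the flanks of starts, was at 9 of 10 in +Dox (64.2% of all genes) and 7 of 10 in -Dox (67.7%), where Meg3 and Rian no longer had it.

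**Figure D4:**
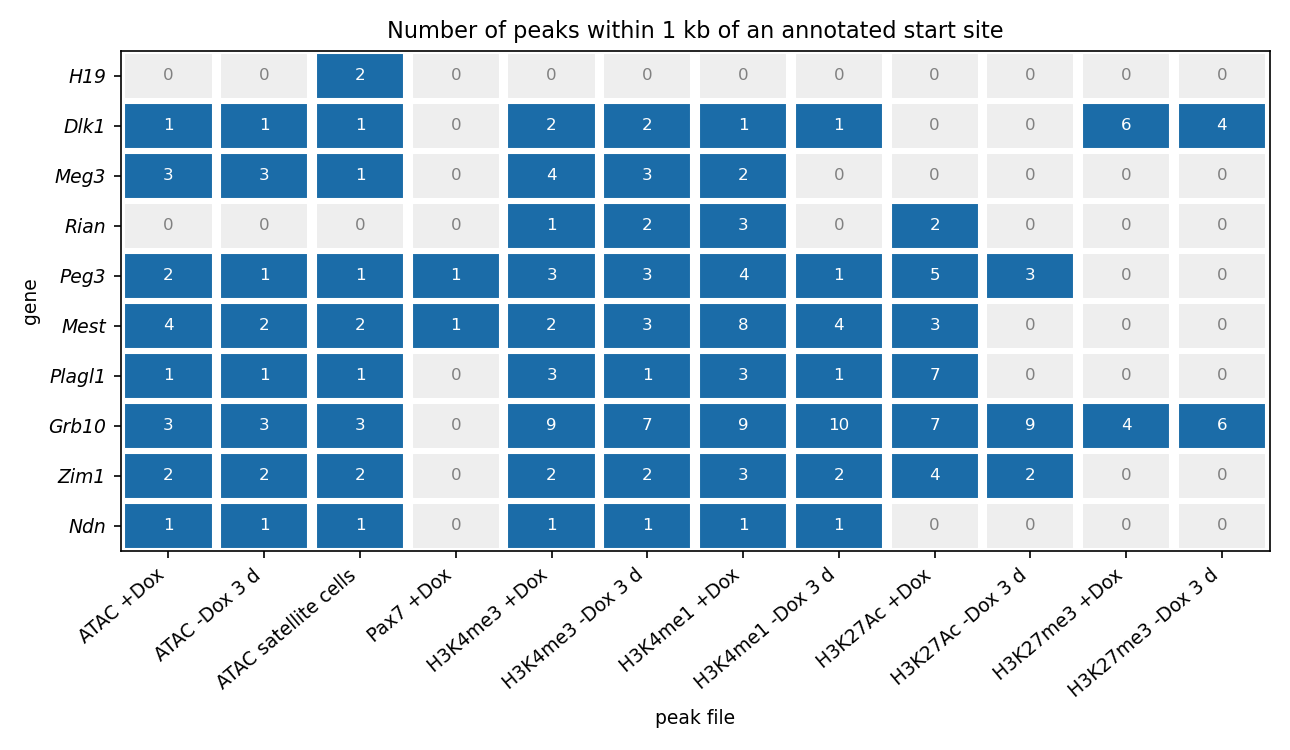
Number of the authors' peak regions within 1 kb of an annotated start site of each of the 10 genes (rows) in each peak file (columns), blue where there was at least 1. H19 had none in any iPax7 file shown and 2 in satellite cell ATAC-seq, H3K27Ac was lost at Rian, Mest and Plagl1 from +Dox to -Dox, and H3K27me3 was at Dlk1 and Grb10 in both states.

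H19, whose transcript rose in -Dox, was the gene of the 10 without a peak of any mark or of open chromatin at its start in +Dox or -Dox. Over the gene and 5 kb on each side, however, H3K4me3 covered 1.44 kb in +Dox and 2.89 kb in -Dox, H3K4me1 2.89 kb and 3.72 kb, and H3K27Ac 3.92 kb and 0.86 kb. Between H19 and Igf2, a stretch of 72.6 kb, H3K4me1 covered 5.52 kb in +Dox and 21.4 kb in -Dox and H3K4me3 0.70 kb and 17.8 kb, while H3K27Ac covered 14.1 kb and 15.2 kb. Genome-wide, these files covered 127.9 Mb and 155.5 Mb for H3K4me1, 63.6 Mb and 155.0 Mb for H3K4me3 and 73.1 Mb and 49.2 Mb for H3K27Ac, so the H3K4me3 lists themselves differ more than 2-fold in extent.

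H3K27Ac, a mark of active promoters and enhancers, went from 6 of the 10 genes in +Dox (50.2% of all genes) to 3 of 10 in -Dox (47.2%). It was present in +Dox and absent in -Dox at the starts of Mest and Plagl1, whose transcripts fell, and also at Rian, whose transcript rose. At Plagl1 the whole locus changed. Over the gene and 5 kb on each side, H3K27Ac covered 26.1 kb in 31 peaks in +Dox and 1.78 kb in 4 peaks in -Dox. At Grb10, whose transcript did not pass the test, it covered 46.6 kb and 32.8 kb. Peg3, Grb10 and Zim1 had H3K27Ac at a start in both states.

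H3K27me3, the mark of Polycomb repression, was at the starts of Dlk1 and Grb10 in both states, or 2 of 10 beside 23.1% of all genes in +Dox and 21.1% in -Dox. Between Dlk1 and Meg3, a stretch of 77.7 kb, it covered 20.5 kb in 48 peaks in +Dox and 12.4 kb in 35 peaks in -Dox. Over the Dlk1 gene and 5 kb on each side it covered 7.83 kb in +Dox and 4.81 kb in -Dox. H3K27Ac was absent from the stretch between Dlk1 and Meg3 in +Dox and covered 3.63 kb in 9 peaks in -Dox. The H3K27me3 lists covered 91.7 Mb and 65.9 Mb of the genome in all. Each list comes from merged replicates, so these differences have no replicate check.

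The Pax7 sites at starts, at Peg3 and Mest, are 2 of 10 genes beside 1.64% of all genes. At Peg3 the site overlapped a wide ATAC-seq peak whose fold enrichment, the authors' measure of signal over background, was 56.8 in +Dox, 37.4 at 12 h, 78.9 at 24 h and 95.5 at 3 days without Dox, higher than 86.2% to 96.8% of genes with a start-site peak in the same files. In satellite cells it was 17.0, higher than 59.8%. Each value is the highest within its region, which was 4186 bases wide in +Dox and 1345 in satellite cells, so it need not lie at the Pax7 site. At Mest the values were 14.3, 4.67, 13.6 and 8.14 in the same order and 6.05 in satellite cells. The percentile of Mest in its own file was 34.2 in +Dox and 20.6 at 3 days. The Plagl1 peak was at percentile 41.7 in +Dox and, with a fold enrichment of 7.58, at percentile 19.1 after 3 days. Dlk1 went from a fold enrichment of 3.62 to 6.47. At Meg3 the highest peak lay at a different place in +Dox (12:110781012-110781505, fold enrichment 6.28) and after 3 days (12:110778925-110779260, 3.79), so these values do not follow 1 region.

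**Figure D5:**
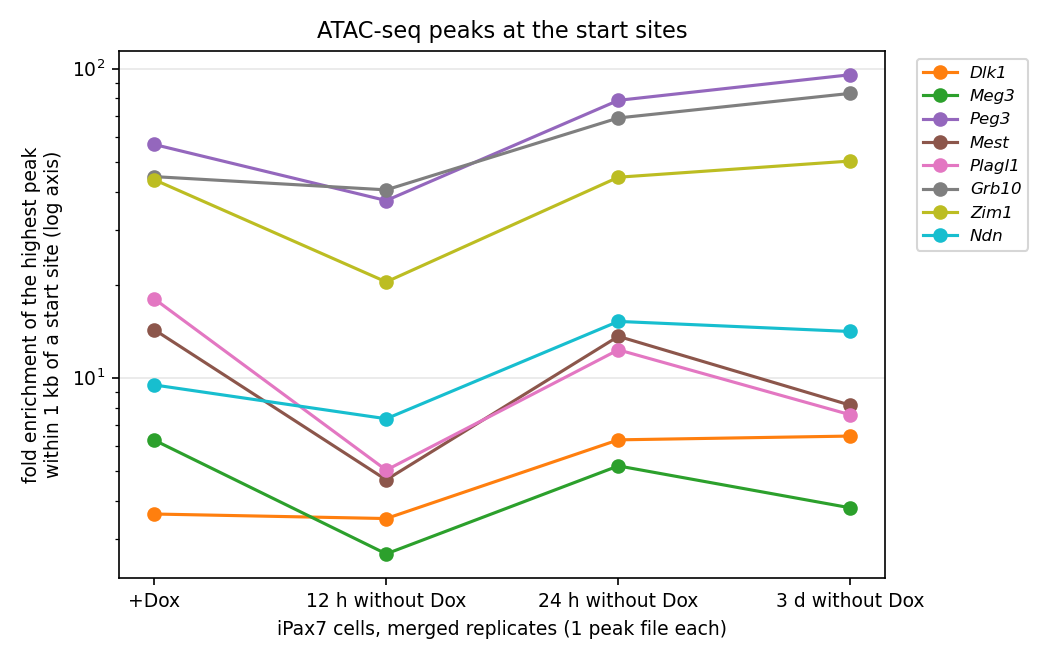
Fold enrichment (log axis) of the highest ATAC-seq peak within 1 kb of a start site of each gene in iPax7 cells with Dox and 12 h, 24 h and 3 days after its withdrawal, 1 merged peak file per time. Peg3, Grb10 and Zim1 were above 20 at all times, H19 and Rian had no peak, and the 12 h value was the lowest for every gene drawn, in the iPax7 time course file with the fewest regions (97637). The Meg3 point in +Dox is a peak at another place than its later points.

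C2C12 cells were assayed as myoblasts without a vector, with a control vector and with a vector for flag-tagged Pax7, and as myotubes. ATAC-seq peaks were at a start of Peg3, Grb10 and Zim1 in all 4 files. With Plagl1 or H19 added, the counts were 4 of 10 in myoblasts without a vector (46.7% of all genes), 5 of 10 with the control vector (57.9%), 4 of 10 with Pax7 (59%) and 4 of 10 in myotubes (56.1%). None of the 4 files had an ATAC-seq peak at Dlk1, Meg3, Rian, Mest or Ndn. The peak at Peg3 had a fold enrichment of 4.77 in myoblasts without a vector, 20.2 with the control vector and 39.1 with Pax7.

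In the C2C12 myoblasts, H3K27Ac was at 5 of the 10 genes with the control vector (55.9% of all genes) and at 5 with Pax7 (57.1%), with H19 in the first list and Plagl1 in the second. H3K4me3 was at H19, Peg3, Mest, Plagl1 and Zim1 with either vector, 5 of 10 beside 47.1% of all genes with the control vector and 39.8% with Pax7. H3K4me1 was at 3 of 10 with the control vector (53.1%) and 6 of 10 with Pax7 (66.5%), H19 being in both. H3K27me3 was at 5 of 10 with the control vector (20.3%) and 5 of 10 with Pax7 (22.9%), with Dlk1, Rian, Plagl1 and Grb10 in both, Mest with the control vector alone and H19 with Pax7 alone. At the H19 start, the Pax7 myoblasts thus had H3K4me3, H3K4me1 and H3K27me3 but no H3K27Ac peak. At Peg3 the widest H3K27Ac peak spanned 824 bases with the control vector and 5598 bases with Pax7. There were 3 such peaks at its starts with the control vector and 1 with Pax7, so these widths set a part against a single region. The H3K27Ac lists covered 91.2 Mb of the genome with the control vector and 122.1 Mb with Pax7. Each value comes from 1 merged file, so no test was possible.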

How the data were processed

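RNA-seq of iPax7 cells with Dox (3 libraries), without Dox for 3 days (2 libraries) and of satellite cells (3 libraries) was used as raw counts per gene, deposited by the authors with no normalization. The submitters' processing notes name Trimmomatic 0.32, TopHat2 2.0, HTSeq 0.6, Bowtie2 2.2.6, MACS2 2.0.10, Picard and edgeR, and build mm9. The gene annotation and strand setting of the counting are not given in the sources used here. Reads overlapping more than 1 gene (1.51% to 2.32%) and reads mapping to several places (7.11% to 7.6% in iPax7 cells, 23.58% to 30.68% in satellite cells) were not counted by the authors, so genes with near copies are measured with less certainty. Peak lists were made by the authors from merged replicates, with MACS2 for ATAC-seq (fold enrichment as a ratio, and −log10 q-values, as deposited) and Qeseq for histone marks. Pax7 sites were those called in at least 2 +Dox samples and no -Dox sample.

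Counts were fitted with edgeR 4.0.16 (R 4.3.3), TMM factors, the filterByExpr filter and the quasi-likelihood F test over all 8 libraries with 1 mean per group, and p-values were adjusted by Benjamini-Hochberg over the 14836 genes tested. Passing means an adjusted p under 0.05. Standard errors were taken as the absolute log2 fold change over the square root of F. The fit was tested on simulated data. The labels do not say whether libraries come from separate cultures or animals, so p-values measure the spread between these libraries. Alternatives were DESeq2 1.42.0, RLE factors, no filter, only the 2 groups compared, a block by replicate number, and leaving out each library. Start sites and exon lengths came from GENCODE M1, the annotation of mm9, and sequences from that genome. Peak entries with the same coordinates were counted as 1 region. Column 1 symbols chose the 10 genes. Named genes were the 10, fixed members of the other imprinted list, regulators of imprints, and for H19, Dlk1, Meg3 and Peg3 the 3 genes most alike. The members and lists were chosen with earlier results of these data known.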

Additional observations from a re-analysis of the deposited data

How the results depend on the processing

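Of 39 recomputed counts of the 10 genes, 37 stayed within 1.5 times the count reported. Leaving out 1 library gave 3 to 6 genes for -Dox against +Dox, 3 to 5 for +Dox against satellite cells and 2 to 4 for -Dox against satellite cells. For the other imprinted genes the same ranges were 4 to 12, 28 to 31 and 21 to 34. A fit that leaves out a -Dox library keeps 1 in that group, which is assumed to vary like the other groups. Replicate numbers come from the count files alone, and samples with the same number did not deviate together (r -0.049 to 0.033). With so few libraries, these values cannot show whether same-numbered samples share a culture or a day. With the replicate block, 9, 3 and 3 of the 10 genes passed in the order above, and 22 of the other imprinted genes passed between -Dox and +Dox in place of 11. This fit used only the 2 groups compared. In the comparisons with -Dox, the third library of the other group was alone in its block and added nothing to the difference. Little was then left to measure the spread, so the counts for these comparisons carry little weight and do not show an effect of pairing. Of 429 recomputed log2 fold changes of the 10 genes and Igf2, 18 lost and 10 gained a pass and 5 turned direction, none of them called. These were Plagl1 between +Dox and satellite cells (-0.14 without the second satellite cell library, the range over libraries left out being -0.14 to 0.43), and between -Dox and satellite cells Meg3 (0.15 with the replicate block, 0.097 without the third satellite cell library, range -0.29 to 0.097) and Mest (-0.16 and -0.23, range -0.23 to 0.57). With the replicate block Peg3, Grb10 and Zim1 passed between -Dox and +Dox, and Dlk1 (+Dox against satellite cells) and Plagl1 (-Dox against satellite cells) no longer did. TMM left the median log2 fold change of all genes at -0.174 for +Dox and -0.231 for -Dox against satellite cells, and RLE at -0.236 and -0.253. The cause of these changes was not tested. With only the ATAC-seq peaks above the median score, 5 of the 10 genes had a start-site peak at 12 h without Dox, 5 in iPax7 myotubes and 2 in C2C12 myoblasts, and with a 2.5 kb window H3K27me3 in +Dox was at 4 and H3K4me1 in C2C12 control myoblasts at 5. The other 32 peak counts were within 1.5 times. Peak files of histone marks and Pax7 have no score, so that alternative gave no value there. The lowest count was that of Dlk1 in satellite cells, with 2 to 28 reads per library.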
